A study of Mus musculus with 9 samples.

Results

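The genes described here are 39 genes of DNA replication and S phase, taken by name out of 22655 genes tested in the esophagus of newborn mice. They were chosen with earlier results of these data known. Counts of them set beside shares over all genes are therefore description and not a test. All 39 were measured. They comprised 9 genes of origin licensing and the replicative helicase, 3 of initiation, 11 of polymerases and clamp loading, 4 enzymes of nucleotide supply, 5 of repair and maturation of new strands, 4 of chromatin behind the fork and 3 of G1 to S control. RNA came from mice at postnatal day 0, of background strain C57BL/6J, in 3 genotypes. Wild type mice (WT, n = 4) were compared with mice that lacked p63 (p63-/-, n = 3) and with p63-/- mice bearing a Cdx2 transgene (p63-/-;Cdx2, n = 2), which the series title calls Villin-Cdx2 after the promoter of villin, a gene of intestinal epithelium. Both mutant genotypes thus share the loss of p63, a transcription factor of stratified squamous epithelium, and the transgenic one adds Cdx2, a transcription factor of the intestine. Each sample was labelled with Cy5 and hybridised, on an array of its own, against a Cy3-labelled reference RNA pooled from 11 lines of cultured mouse cells. A value below is the log2 ratio of the sample over that reference, so 0 means equal signal and a difference of 1 means 2-fold.

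DNA replication is prepared in G1, when the loading factors Cdc6 and Cdt1 place the Mcm helicase on origins. In S phase the helicase is activated with the Gins complex and Mcm10, primase and the polymerases copy the strands around the sliding clamp Pcna, and ribonucleotide reductase and thymidylate synthase supply the deoxynucleotides. Many of these genes are transcribed around the G1 to S transition under E2F factors, so their summed mRNA is commonly read as a sign of how many cells of a tissue are cycling. In the stratified squamous epithelium of the esophagus, dividing cells lie in the basal layer.

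RefSeq promoter windows (build GRCm38.p6, from 250 bases before to 50 after the annotated start) were found for 32 of the 39 genes and searched, on both strands, for the E2F-type sites TTTGGCGC, TTTGCCGC, TTTCGCGC and TTTCCCGC. At least 1 such site lay in a window of 13 of the 32 genes (40.6%), namely Mcm3, Mcm5, Mcm6, Mcm7, Cdc6, Cdt1, Rfc3, Pola1, Pole2, Pold1, Lig1, Fancg and Uhrf1. Among all 32851 promoter windows 2.26% held one, and among all 27025 genes with a window 2.6% did. The CCAAT box, searched apart from these sites, was in a window of 17 of the 32 genes (53.1%), against 41.1% of all genes. A match is a description of letters and not a shown binding site. For 5 genes with a site before the start, the 250 bases before it are printed with the E2F-type sites in capitals. Cdc6 and Pola1 are shown for their wide difference between the genotypes without p63, Fancg because its call is examined below, and Mcm6 and Mcm5 because they held 3 and 2 sites, with overlapping matches on opposite strands. The windows were chr11:98907901-98908150 on the plus strand for Cdc6, chrX:93632156-93632405 on the minus strand for Pola1, chr4:43010302-43010551 on the minus strand for Fancg, chr1:128359706-128359955 on the minus strand for Mcm6 and chr8:75109259-75109508 on the plus strand for Mcm5.
Cdc6: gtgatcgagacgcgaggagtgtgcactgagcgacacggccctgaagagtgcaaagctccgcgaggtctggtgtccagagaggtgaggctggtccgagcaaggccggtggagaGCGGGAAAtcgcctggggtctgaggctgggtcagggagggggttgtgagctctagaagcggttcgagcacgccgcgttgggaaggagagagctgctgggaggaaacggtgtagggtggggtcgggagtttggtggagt
Pola1: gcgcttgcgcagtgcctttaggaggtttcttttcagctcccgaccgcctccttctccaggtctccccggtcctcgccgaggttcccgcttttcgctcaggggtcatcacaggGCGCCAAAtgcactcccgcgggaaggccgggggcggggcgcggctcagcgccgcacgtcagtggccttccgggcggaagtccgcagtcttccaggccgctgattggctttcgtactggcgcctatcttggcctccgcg
Fancg: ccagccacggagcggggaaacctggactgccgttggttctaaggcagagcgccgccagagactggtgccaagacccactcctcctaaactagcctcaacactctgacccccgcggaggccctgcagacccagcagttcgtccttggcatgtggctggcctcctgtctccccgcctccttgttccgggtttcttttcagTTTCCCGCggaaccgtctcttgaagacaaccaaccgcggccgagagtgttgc
Mcm6: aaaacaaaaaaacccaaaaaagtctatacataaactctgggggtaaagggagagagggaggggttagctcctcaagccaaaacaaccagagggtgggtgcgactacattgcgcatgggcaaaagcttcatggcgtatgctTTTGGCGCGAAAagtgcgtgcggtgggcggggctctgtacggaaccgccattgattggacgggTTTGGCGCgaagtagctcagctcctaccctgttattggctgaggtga
Mcm5: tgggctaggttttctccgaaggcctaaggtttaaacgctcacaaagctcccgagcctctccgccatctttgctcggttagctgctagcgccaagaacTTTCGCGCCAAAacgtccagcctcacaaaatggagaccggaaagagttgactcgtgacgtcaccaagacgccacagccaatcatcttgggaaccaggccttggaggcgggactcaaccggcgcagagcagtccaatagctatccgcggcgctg
The first base of the site stood 138 bases before the start in both Cdc6 and Pola1, and 52 bases before it in Fancg. In Mcm6 the sites began 110, 106 and 47 bases before the start, and in Mcm5 153 and 149 bases before it.

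The sample signal was well above background for 30038 to 33249 probes per array, including those of all 39 genes on all 9 arrays. No slide or scan held more than 1 genotype, so genotype and batch cannot be told apart. The brightest Trp63 probe had log2 ratios from 3.39 to 4.13 on the WT arrays, from 2.73 to 2.74 in p63-/- and of 3.37 and 3.09 in p63-/-;Cdx2. This probe was not tested for whether it lies in the deleted part of the gene. The Cdx2 probe was well above background on 0 of 9 arrays. Of 14 measured squamous epithelial genes, 8 fell in p63-/- and 11 in p63-/-;Cdx2 against WT (limma, Benjamini-Hochberg adjusted p under 0.05 over all genes), among them Krt14, a basal keratin, with differences of -2.22 and -2.49. Over all 22655 genes tested, 61 and 220 were called lower in these comparisons. The source label of WT replicate 4 names p63-/-, while its title and genotype say WT. RNA was taken from esophageal tissue while the labels name epithelium, and markers of muscle and fibroblasts were bright on all arrays, with median log2 ratios of 1.67 or more.

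On most arrays the 39 genes lay below the reference. Their median log2 ratio was -0.78, -1.12, -0.87 and -0.99 on WT arrays 1 to 4, -1.28, -0.77 and -0.73 on p63-/- arrays 1 to 3, and -0.23 and -0.49 on p63-/-;Cdx2 arrays 1 and 2. Both arrays with the transgene were thus above all 7 others, and p63-/- array 1 was the lowest of the 9. Most of the genes moved as a block between arrays of 1 genotype. WT array 2 was the lowest WT array for 36 of the 39 genes, and p63-/- array 1 was the lowest of its group for 38. In the transgenic pair, p63-/-;Cdx2 array 1 was the higher for 37. Fancg was an exception to each of these orders. Its mean Pearson r with the other members over the 9 arrays was 0.61, and that of E2f1 was 0.51. The median over all genes tested lay between 0.02 and 0.09 on every array. In RNA of a whole tissue, more cells in cycle and more RNA per cell cannot be told apart.

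**Figure D1:**
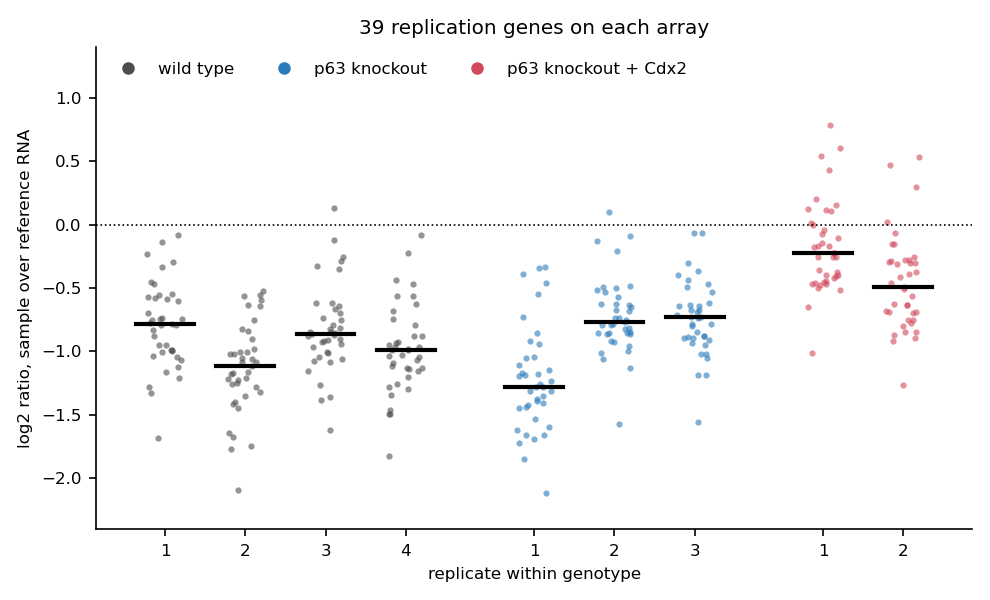
Log2 ratio of sample over reference RNA (vertical axis) of each of the 39 replication genes on each of the 9 arrays (horizontal axis, replicate within genotype); points are genes and black bars are the median of the array. The medians of both p63-/-;Cdx2 arrays, -0.23 and -0.49, lie above the other 7, and p63-/- array 1 is lowest at -1.28.

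Loss of p63 alone was not accompanied by a called change in any of the 39 genes. In p63-/- against WT, 0 genes were called by limma at an adjusted p of 0.05 and 0 had an unadjusted p under 0.05. Of all 22655 genes, the same comparison called 13 higher (0.0574%) and 61 lower. An unadjusted p under 0.05 went with a higher level in 1001 of all genes (4.42%) and with a lower one in 763. No gene of the 39 had groups that did not overlap. Over all genes, 1353 were higher without overlap (5.97%) and 1037 were lower. The differences ran from -0.17 to 0.27, with a median of 0.03 beside 0.02 over all genes, and 27 of the 39 were above 0, as were 56.4% of those of all genes. Of the 6 widest differences, 5 were positive: Gmnn 0.27, Rnaseh2b 0.25, Fancg 0.20, Rfc4 0.20 and Rrm2 0.17. Pola1, the catalytic subunit of the polymerase that extends the primers, had -0.17.

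Gmnn encodes geminin, which binds Cdt1 and blocks a second round of licensing. Its log2 ratios were -0.99, -1.21, -0.82 and -1.09 on the WT arrays, -1.05, -0.57 and -0.68 on the p63-/- arrays, and -0.18 and -0.29 with the transgene. Its p63-/- and WT values overlapped, with a difference of 0.27 (SE 0.13, 95% interval -0.04 to 0.58, limma adjusted p = 0.697). The interval for the median gene of the list is of like width: for Rfc5, at 0.03, it ran from -0.36 to 0.42. Differences of that size could not be resolved with 3 arrays against 4.

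With the Cdx2 transgene all 39 genes had a higher mean log2 ratio than in p63-/- alone, where 43.8% of all genes did. The median difference was 0.56, against -0.03 over all genes, and the range was 0.07 to 1.06. The largest were Uhrf1 at 1.06, Ccne2 at 0.99, Tyms at 0.88, Cdc6 at 0.86 and Rrm2 and Pola1 at 0.85. In 34 of the 39 genes both transgenic arrays exceeded all 3 p63-/- arrays, while 14.1% of all genes were higher without overlap. None of these differences passed the test, however: limma called 0 of the 39 genes, and 0% of all genes, higher, with a lowest adjusted p among the 39 of 0.353 for Fancg. At an unadjusted p under 0.05, 29 of the 39 were higher, against 5.17% of all genes. Because most of the genes moved as a block between arrays, the genes behind these counts are not independent of each other, here or against WT. p63-/- array 1 bears on the size: without it the median difference was 0.39.

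Uhrf1, which brings the maintenance DNA methyltransferase to newly copied DNA, had log2 ratios of -1.66, -0.77 and -0.88 in p63-/- and of -0.10 and 0.02 with the transgene, beside -1.05, -1.32, -0.85 and -1.26 in WT. The transgenic pair stood apart from the other 7 arrays (difference from p63-/- 1.06, SE 0.26, limma adjusted p = 0.362). Ccne2, cyclin E2, the partner of Cdk2 at S phase entry, was at -0.85, -0.13 and -0.37 in p63-/-, at 0.60 and 0.47 with the transgene and at -0.29, -0.52, -0.12 and -0.47 in WT. It was above the reference only on the transgenic arrays. In mm9 coordinates, the Uhrf1 probe lies on chromosome 17 at 56462657 to 56462716 (plus strand, 3317 bases into the transcript) and the Ccne2 probe on chromosome 4 at 11130171 to 11130230 (plus strand, 1354 bases into it). Its relative Ccne1 had differences of 0.42 from p63-/- and 0.45 from WT, and overlapped in both comparisons.

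Among the enzymes of nucleotide supply, Rrm2, the regulated small subunit of ribonucleotide reductase, was at -1.59, -0.85 and -0.89 in p63-/- and at -0.25 and -0.28 with the transgene. Its WT values were -1.16, -1.67, -0.96 and -1.34. The large subunit Rrm1 was at -1.53, -0.995 and -1.02 in p63-/-, -0.08 and -0.69 with the transgene, and -1.07, -1.42, -1.08 and -1.28 in WT. Tyms, thymidylate synthase, was at -1.41, -0.63 and -0.68 in p63-/-, 0.20 and -0.26 with the transgene, and -0.55, -1.02, -0.85 and -0.97 in WT. In all 3 genes the transgenic arrays were above every other array, with differences from p63-/- of 0.85, 0.80 and 0.88. The probes of these 3 genes lie, in mm9, on chromosome 12 at 25398619 to 25398674 (Rrm2, plus strand), chromosome 7 at 109617223 to 109617283 (Rrm1, plus strand) and chromosome 5 at 30387605 to 30387664 (Tyms, minus strand). Tk1, the thymidine kinase of the salvage route, had the smallest difference of the 4 enzymes, 0.35.

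For licensing, Cdc6 was at -1.23, -0.53 and -0.40 in p63-/-, at 0.43 and -0.15 with the transgene and at -0.23, -0.98, -0.35 and -0.68 in WT. The lower transgenic array cleared the highest WT array by little, and the spread within each group was wide (SD 0.45 in p63-/- and 0.34 in WT). The 6 subunits of the Mcm2 to Mcm7 ring had differences from p63-/- of 0.43 for Mcm5, 0.44 for Mcm3, 0.50 for Mcm7, 0.57 for Mcm6, 0.65 for Mcm2 and 0.83 for Mcm4. All 9 licensing and helicase genes were free of overlap in this comparison, with a median of 0.57. Cdt1 had a difference of 0.61 and its inhibitor Gmnn 0.53.

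At the fork, Pola1 was at -1.66, -0.85 and -1.02 in p63-/-, -0.17 and -0.49 with the transgene, and -0.74, -1.18, -1.08 and -1.04 in WT. Rfc4, a subunit of the complex that loads the clamp, was at -1.72, -1.01 and -1.05 in p63-/-, -0.42 and -0.85 with the transgene, and -1.28, -1.74, -1.36 and -1.46 in WT. The transgenic arrays of both genes lay above all others. Pcna itself was at -0.15 on both transgenic arrays and no higher than -0.74 elsewhere, with a difference of 0.76 from p63-/-. Within the 11 polymerase and clamp genes the differences from p63-/- ran from 0.10 for Rpa2, a subunit of the single-strand binding protein, to 0.85 for Pola1, with a median of 0.50. Rpa1, the large subunit of the same protein, had 0.47. Among the 3 initiation genes the values were 0.44 for Gins2, 0.46 for Mcm10 and 0.70 for Gins1. By the brightest probes, the smallest difference of the 39 was that of E2f1, the transcription factor, at 0.07 (95% interval -0.23 to 0.37). Its transgenic values were -0.23 and -0.62, beside -0.55, -0.50 and -0.43 in p63-/-. The second probes of E2f1 and Rpa2 gave differences from p63-/- of 0.19 and 0.23. The 5 genes that overlapped were Ccne1, Ung, Rfc3, Rpa2 and E2f1.

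**Figure D2:**
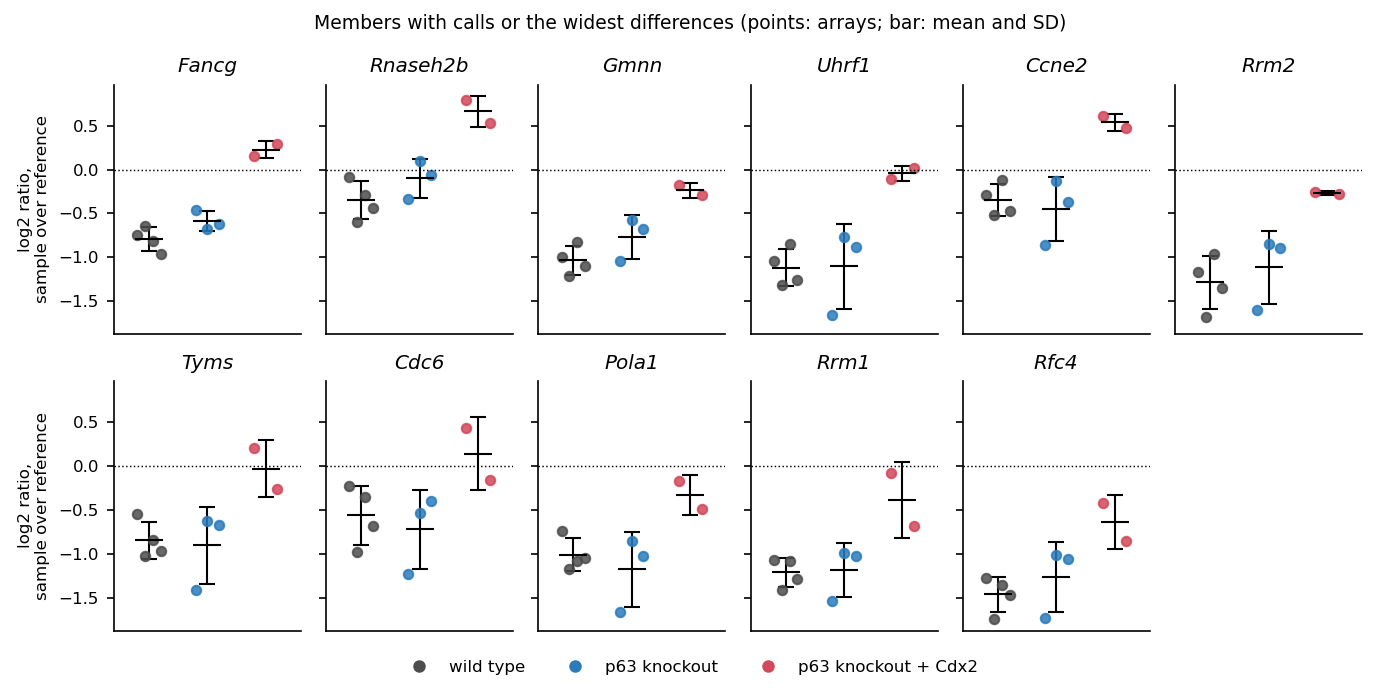
Log2 ratio of sample over reference RNA (vertical axis) in WT, p63-/- and p63-/-;Cdx2 mice for the 11 genes given array by array; points are arrays, bars the mean and SD. For each gene both transgenic arrays lie above all p63-/- arrays, and only Fancg and Rnaseh2b were called, against WT.

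Against WT, 2 of the 39 genes rose in p63-/-;Cdx2, Fancg and Rnaseh2b, in a comparison that called 0.437% of all genes higher. All 39 differences were above 0, as were 49.2% of those of all genes, and their median was 0.62 beside -0.00 over all genes. In 32 genes both transgenic arrays exceeded all 4 WT arrays (13.9% of all genes), and 31 had an unadjusted p under 0.05 (9.01% of all genes). The widest differences were those of Uhrf1 (1.08, SE 0.24, limma adjusted p = 0.0754), Rrm2 (1.02), Fancg (1.02), Rnaseh2b (1.01), Ccne2 (0.89) and Rrm1 (0.83). The transgenic arrays are the same as in the comparison with p63-/-, so the values of both comparisons are not independent. The 7 genes that overlapped were Ccne1, Gins2, Tk1, Rfc3, Ung, Rpa2 and E2f1. Without WT replicate 4, whose labels conflict, limma called 1 gene, Fancg, the median difference was 0.60, and 39 genes were above 0 and 32 free of overlap.

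Rnaseh2b encodes a subunit of ribonuclease H2, which removes ribonucleotides from DNA. It was at -0.08, -0.59, -0.29 and -0.44 in WT, -0.34, 0.10 and -0.07 in p63-/- and 0.79 and 0.53 with the transgene. Both transgenic arrays lay above all others, with a 2.01-fold difference from WT (1.01 on the log2 scale, SE 0.17, limma adjusted p = 0.0423). The probe lies at mm9 chromosome 14, 62991219 to 62991278, on the plus strand, 846 bases into the transcript. A second probe, 640 bases into it at 62982889 to 62982948, had a difference of 0.79 (SE 0.14). The call on Rnaseh2b was close to the threshold: it was lost in 6 of 9 fits that left out 1 array, with an adjusted p of 0.101 without WT replicate 2, 0.109 without WT replicate 4, 0.0563 without p63-/- replicate 2, 0.0894 without p63-/- replicate 3, 0.178 without p63-/-;Cdx2 replicate 1 and 0.0691 without replicate 2. The last 2 fits leave 1 transgenic array, which is assumed to vary like the other genotypes.

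Fancg encodes a subunit of the Fanconi anemia core complex, which acts on crosslinked DNA at stalled forks. By its brightest probe it was at -0.74, -0.64, -0.81 and -0.96 in WT, -0.46, -0.68 and -0.62 in p63-/- and 0.16 and 0.29 with the transgene. The transgenic pair was again above all others, 2.02-fold over WT (1.02, SE 0.11, limma adjusted p = 0.00977). Unlike most genes of the list, this probe read highest among the p63-/- arrays on array 1. This probe lies at mm9 chromosome 4, 43015236 to 43015295, on the minus strand, 2636 bases into the transcript, and its call was kept whichever single array was omitted (9 fits). In 2 of those fits 1 transgenic array was left, and its spread was taken from the other genotypes.

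The other Fancg probes did not share that difference. A dimmer probe 240 bases into the transcript (43022874 to 43022933) was at 1.96, 1.27, 0.28 and 1.24 in WT, 0.78, 0.98 and 0.82 in p63-/- and 0.23 and 0.26 with the transgene. There the transgenic arrays were the lowest of the 9, with a difference from WT of -0.94 (SE 0.36). The remaining probe, 1693 bases into the transcript (43016751 to 43017436), had a difference of 0.14 (SE 0.15). It was the dimmest of the 3, with a mean log2 sample signal of 7.05 beside 11.01 for the brightest. In the sample channel it stood at 7.38 and 7.24 with the transgene and no higher than 7.07 elsewhere. With the mean of its probes the gene had a difference of 0.07 (limma adjusted p = 0.831), and Rnaseh2b was then the only gene called. The rise of Fancg in log2 ratio therefore holds for 1 of its 3 probes, and the other probes are dim.

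**Figure D3:**
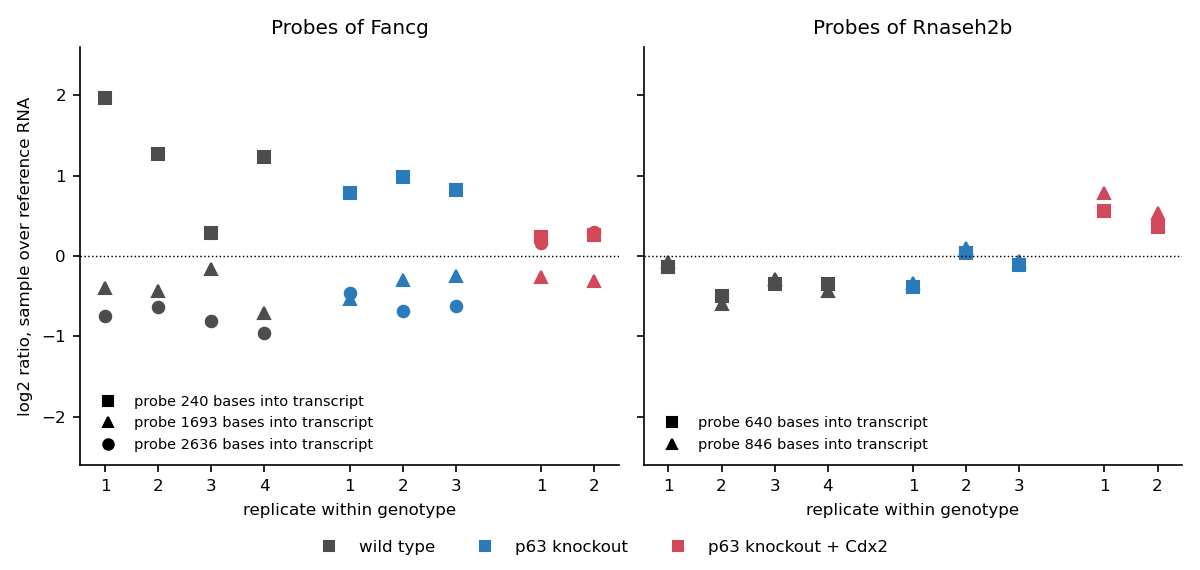
Log2 ratio of sample over reference RNA (vertical axis) on each array (horizontal axis, replicate within genotype) for the 3 probes of Fancg and the 2 of Rnaseh2b; marker shapes are probes and colours genotypes. The transgenic arrays are highest for the Fancg probe 2636 bases into the transcript and lowest for the one at 240, while both Rnaseh2b probes run together.

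Other genes with several probes bear on how far a value depends on the probe. Of the 39 genes 14 had more than 1 probe, 55 probes in all. For Uhrf1 the second probe gave 0.95 against WT and for Ccne2 0.65, and the second probes of Cdc6 and Gins1 gave 0.81 and 0.60. For Tyms a bright second probe gave 0.89 and a dim one 0.06. The second probe of Mcm4 was well above background on 1 of 9 arrays and gave -0.02, and that of Rrm1 on 0 of 9.

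Read from the sample channel alone (log2 signal after loess and Aquantile normalization), 39 of 39 genes were again higher with the transgene in both comparisons, with medians of 0.67 against p63-/- and 0.62 against WT. Against WT 5 genes were called: Fancg, Rnaseh2b, Pcna (0.84), Gmnn (0.83) and Slbp (0.74), the protein that binds the stem-loop of histone mRNA, while 0.883% of all genes were called higher. Against p63-/- 0 of the 39 were called and 0.0397% of all genes. In p63-/- against WT 0 were called, 0.764% of all genes were called higher, and the median was 0.01. The same reference RNA was used on all arrays, and the median reference-channel difference over the 39 genes was -0.00, 0.03 and 0.04 in the 3 comparisons. In that channel limma called, in either direction, 10 of the 39 genes in p63-/- against WT (12.7% of all genes), 5 in p63-/-;Cdx2 against p63-/- (8.51% of all genes) and 0 in p63-/-;Cdx2 against WT (0.234% of all genes), with differences no wider than 0.43.

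**Figure D4:**
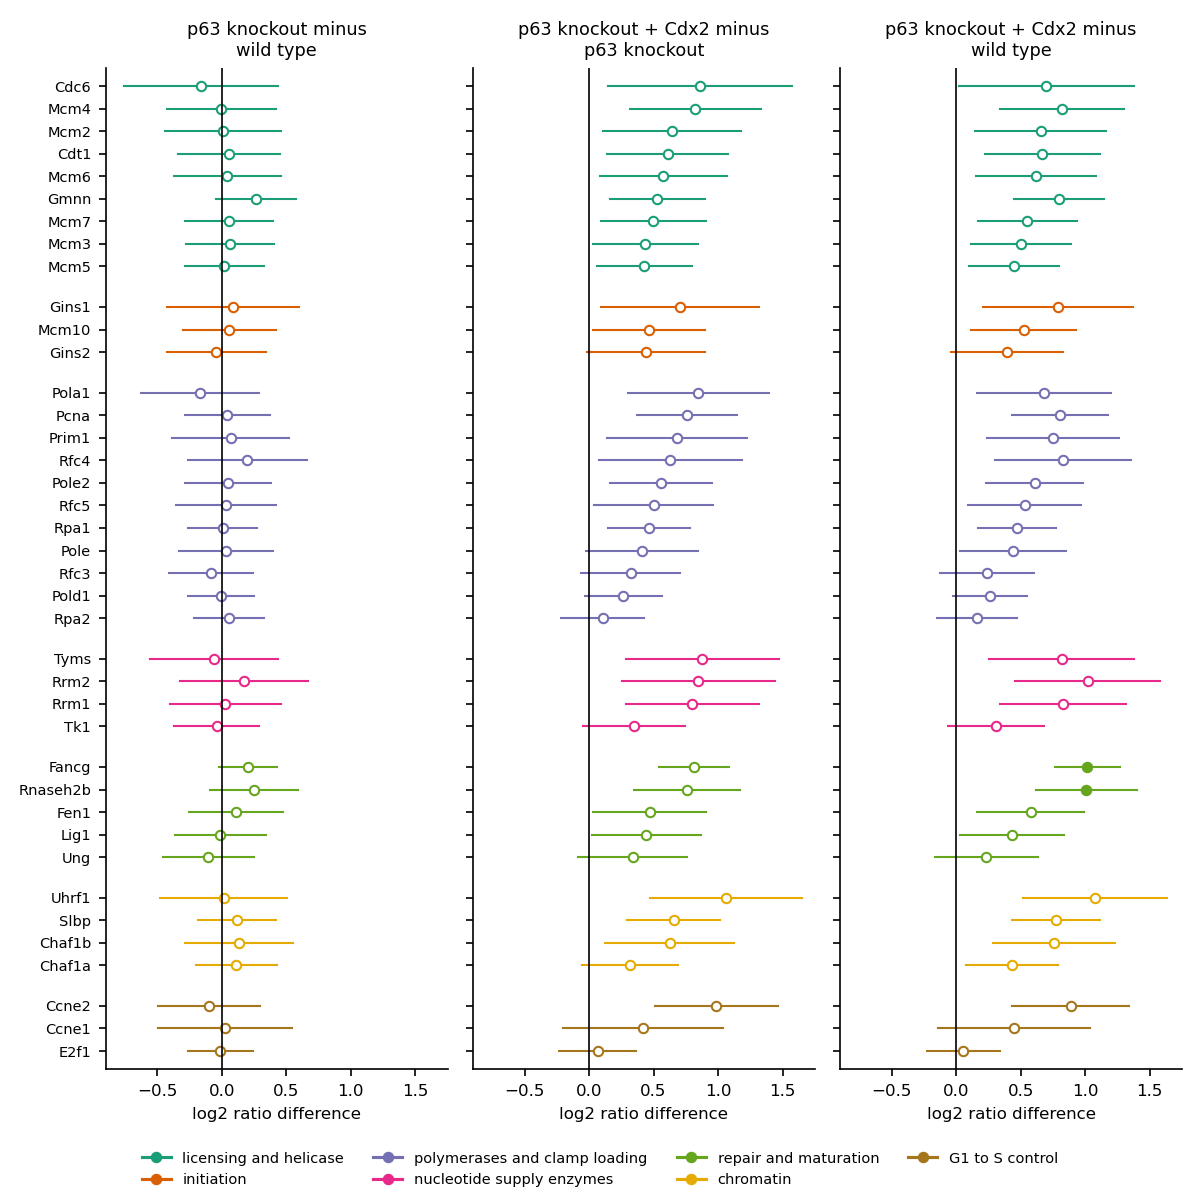
Differences in log2 ratio (horizontal axis) with 95% intervals from limma for the 39 genes (vertical axis, coloured by role) in the 3 comparisons; filled points passed the adjusted test. Points scatter about 0 for p63-/- minus WT, while all 39 lie above 0 in both comparisons of p63-/-;Cdx2, where only Fancg and Rnaseh2b against WT are filled.

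By role, the median differences of p63-/-;Cdx2 from p63-/- and from WT were 0.82 and 0.82 for nucleotide supply, 0.64 and 0.76 for chromatin, 0.57 and 0.66 for licensing and helicase, 0.50 and 0.53 for polymerases and clamp loading, 0.47 and 0.58 for repair and maturation, 0.46 and 0.52 for initiation and 0.42 and 0.45 for G1 to S control. The roles hold 3 to 11 genes each and were not compared by a test. The chromatin genes were Uhrf1, Slbp and both larger subunits of the histone chaperone CAF-1, Chaf1a (0.32 and 0.43) and Chaf1b (0.63 and 0.76). In repair and maturation, the flap endonuclease Fen1 had 0.47 and 0.58, the ligase Lig1 0.44 and 0.43, and the uracil glycosylase Ung 0.34 and 0.23.

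Other genes of the same processes were listed apart from the 39. Their list medians ran from 0.21 to 0.63 against p63-/- and from 0.16 to 0.62 against WT. Those of the 39 were 0.56 and 0.62. Helicase activation and fork genes (11 measured of 12) had medians of 0.63 against p63-/- and 0.60 against WT. Of these, 1 was called against WT, Topbp1 (0.91, limma adjusted p = 0.0441), a scaffold of helicase activation and of checkpoint signalling. Of 17 chromatin assembly and maintenance genes, with medians of 0.46 and 0.50, 1 was called against WT, Ezh2 (0.88, limma adjusted p = 0.0278), the histone methyltransferase of Polycomb repression. The 30 mitosis genes had medians of 0.62 and 0.62, with all 30 above 0 in both comparisons. Of these, 1 was called against WT, Smc4 (1.00, limma adjusted p = 0.0183), a condensin subunit. Over all genes, 0.437% were called higher against WT, and 43.8% and 49.2% were above 0 against p63-/- and WT. No gene was called among 12 of origin recognition and licensing (0.23 and 0.28), 18 other subunits of polymerases, clamp loader and RPA (0.29 and 0.27), 15 of nucleotide supply (0.24 and 0.16), 26 of E2F, Rb and G1 to S control (0.21 and 0.22) and 22 of the Fanconi and fork checkpoint pathways (0.42 and 0.37). In p63-/- against WT 0 genes of these 8 lists were called, with medians from -0.03 to 0.10, and in p63-/-;Cdx2 against p63-/- 0 as well.

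The genes whose log2 ratio over the 9 arrays was most like that of Rnaseh2b were Tyw5, Ncapd3, AK037171, Cdc7 and Zfp952, with a Pearson r from 0.98 to 0.99. For Fancg, read from its brightest probe, the 5 nearest included Vps50 (0.95) and Ranbp2 (0.94). These are the highest of all correlations with the genes tested on 9 arrays and are given as a description.

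Markers of other cells were set beside these values. The median log2 ratio of the 9 measured erythroid markers (of 11) was 1.86, 1.48, 1.98 and 1.67 in WT, 1.35, 2.08 and 2.15 in p63-/-, and 2.70 and 2.04 with the transgene. As for the replication genes, p63-/- array 1 was lowest and p63-/-;Cdx2 array 1 highest. Unlike for those genes, p63-/-;Cdx2 array 2, at 2.04, lay below p63-/- arrays 2 and 3. The median difference of these markers with the transgene was 0.32 from p63-/- and 0.50 from WT. Against p63-/-, 8 of 9 were above 0 (43.8% of all genes) and 1 of 9 was higher without overlap (14.1% of all genes). Against WT, 7 of 9 were above 0 (49.2% of all genes) and 4 of 9 were higher without overlap (13.9% of all genes). In the sample channel alone their medians were 0.86 and 0.78. The summed sample signal of the list overlapped between the groups: it was 287842 to 384052 in WT, 264308 to 339678 in p63-/- and 321168 and 334524 with the transgene. The 10 fibroblast markers had median differences of -0.23 from p63-/- and -0.42 from WT, with summed signals of 822477 and 1003750 with the transgene against 973198 to 1180180 in WT and 1044690 to 1219160 in p63-/-. Median differences from p63-/- and from WT were -0.15 and -0.41 for smooth muscle and -0.13 and -0.12 for skeletal muscle, whose array medians overlapped between WT and the transgenic pair. In the same order, the median differences were -0.23 and 0.16 for immune cells and -0.19 and -0.04 for enteric neurons and glia. Those of multiciliated cells were -0.18 and -0.04, and those of simple columnar epithelium -0.04 and -0.29. No marker of the lists in this paragraph was called in a comparison that involves the transgene. The part of these cells in the replication gene differences was not tested.

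**Figure D5:**
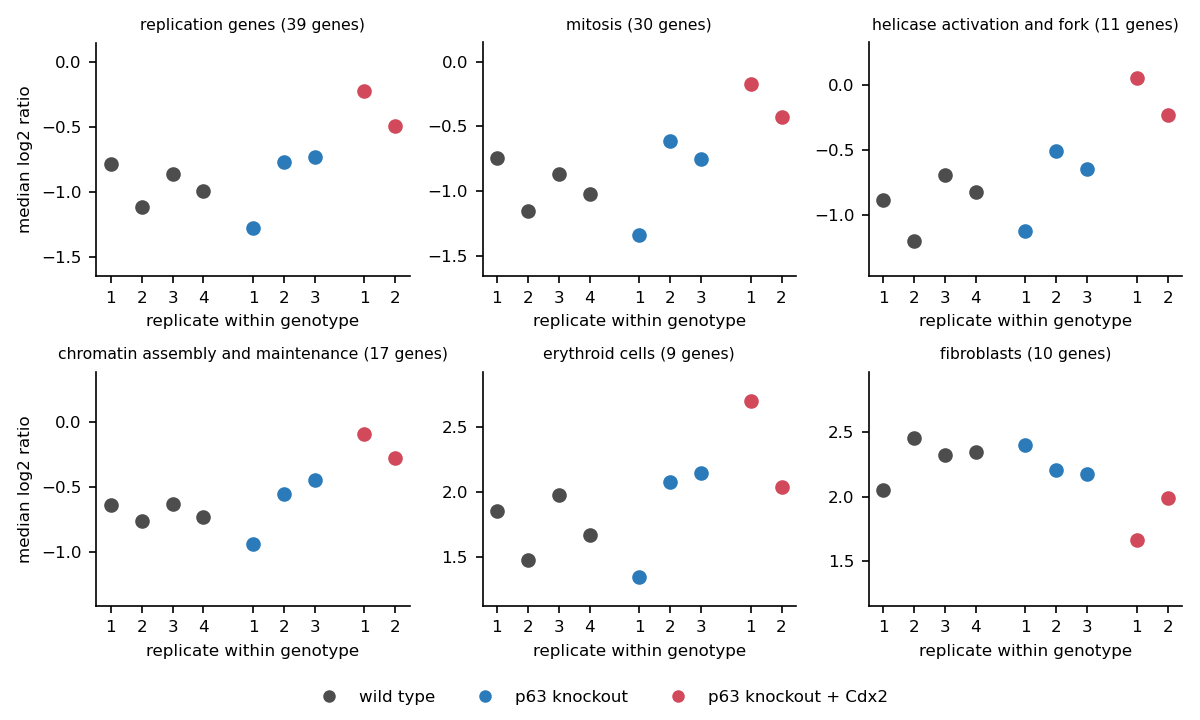
Median log2 ratio of sample over reference RNA (vertical axis, the same height of scale in each panel) of 6 gene lists on each array (horizontal axis, replicate within genotype). The mitosis, fork and chromatin lists place the transgenic arrays highest, as the replication genes do, and the mitosis and chromatin lists place p63-/- array 1 lowest; erythroid markers also have their lowest value on p63-/- array 1, and fibroblast markers their lowest on p63-/-;Cdx2 array 1.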

How the data were processed

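Esophagus RNA of newborn mice (4 WT, 3 p63-/-, 2 p63-/-;Cdx2) was read on Agilent 2-colour arrays, 1 array per sample, with no dye swap. The deposited scanner files hold the mean and local background intensity of each spot in both channels and, per the file headers, a log10 ratio of Cy5 over Cy3 made by version 10.7.3.1 of Agilent Feature Extraction (9.1 in the submitters' processing notes). The authors' deposited value table holds log2 ratios, which matched the scanner's log ratio of the same array in direction and centring (r of 0.992 or more; column medians -0.213 to -0.0281); it served as an alternative.

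Of 45018 spots, 1639 were controls and 119 to 171 per array were outliers, both left out. Background was corrected by normexp (offset 50), log ratios were normalized by loess within arrays, spots of a probe were averaged, and 33761 of 41174 probes well above background on at least 2 arrays were kept. The brightest probe stood for a gene. Probes were named by accession (26918), by symbol or synonym (5899) through a RefSeq table (GRCm38.p6, names only), or as in the file (8357). Coordinates of probes are mm9, as in the files; exon and intron positions were not analysed here.

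Genes were tested with limma 3.58.1 (R 4.3.3) in 1 model over all 9 arrays, with eBayes and Benjamini-Hochberg adjustment at 0.05 over 22655 genes; the fit was tested on simulated data. Median differences of a list carry no test. The members and lists were chosen with earlier results of these data known. Genes called in any comparison and the 6 with the widest difference in each were given array by array, other members by role, and from related lists the genes called. Some genes with a like pattern are not reported here. Samples of a group are labelled as biological replicates. Deviations from the group mean correlated between same-numbered arrays of different genotypes with r from -0.13 to 0.19. For differently numbered arrays r ran from -0.20 to 0.19. The deviations of the 2 transgenic arrays mirror each other by construction, so this check cannot exclude pairing. The numbers are not shown to pair samples and were not used in the main fit. Figures were drawn with matplotlib.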

Additional observations from a re-analysis of the deposited data

Results flagged for a closer look

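Mcm5, a subunit of the helicase ring, was at -0.58, -0.84, -0.62 and -0.62 on WT arrays 1 to 4. The gap from WT array 2 to the next array, divided by the range of the group, was 0.849, past Dixon's limit for 4 samples. It was 1 of 57 groups of values examined, and chance passes that limit in about 1 group of 20. WT array 2 was also the lowest WT array for 36 of the 39 genes.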

How the results depend on the processing

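The count of genes called in p63-/-;Cdx2 against WT, 2 in the report, depended on the processing. For most settings the number called over all genes is not given beside it. The counts therefore do not set the 39 genes apart from other genes. The count was 6 with no background subtraction, 5 in the sample channel alone and 7 with a trended and robust variance prior. It was 1 with the mean of probes, 1 with only both groups compared in the fit, 0 after scaling log ratios to equal spread (lowest adjusted p = 0.0592) and 1 when both low arrays, WT replicate 2 and p63-/- replicate 1, were left out; the scaling and the omission of both arrays were chosen after seeing the data. Leaving out 1 array at a time gave 1 to 9 genes, 9 without p63-/- replicate 1. With the replicate block the count was 0 (lowest limma adjusted p = 0.189), against 8 calls over all genes and 319 without it; the numbers are not shown to pair samples. The other 2 comparisons had 0 genes called by limma in every setting run. Of the median differences, that of p63-/- against WT moved to 0.26 after scaling and lay between -0.06 and 0.21 without 1 array; those of p63-/-;Cdx2 stayed between 0.39 and 0.73 against p63-/- and between 0.52 and 0.78 against WT. Between 37 and 39 of the 39 genes were above 0 in both comparisons. The difference of Fancg between p63-/- and WT was reversed with the mean of probes, to -0.020. Except where stated, the cause was not tested. With 2 transgenic arrays, the number of arrays limits the precision.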
